A study of Mus musculus with 24 samples.

Results

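Knockdown of Chd4 with the hairpin named shRNA1 was compared with the hairpin named shluci, which the titles give as the other arm of the same set. The comparison used 4 of the 24 ATAC-seq libraries of the series, 2 with each hairpin, chosen by their titles. ATAC-seq marks open DNA, into which a transposase inserts sequencing adapters, and each library was available as 1 list of peaks. All 4 libraries came from E14 mouse embryonic stem cells of the genotype CTCF AID, in which CTCF carries an auxin-inducible degron, and none was treated with the auxin IAA. The growth protocol gives serum-free medium with leukemia inhibitory factor, PD0325901 and CHIR99021, which inhibit MEK and GSK3 and hold the cells in the naive state. The hairpin is given by the titles alone, and the labels do not state the time after its introduction, the sequence of either hairpin or whether the replicates were separate cultures. The spread between the 2 replicates may therefore be technical.

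CHD4 is an ATP-dependent chromatin remodeller and the motor subunit of the NuRD complex, which joins it to the histone deacetylases HDAC1 and HDAC2, to MBD2 or MBD3, and to MTA, GATAD2 and RBBP subunits. The complex slides nucleosomes over regulatory DNA and removes acetyl groups from histones. In embryonic stem cells it is known to restrain transcription at enhancers and promoters, and to take part in the exit from pluripotency. CHD4 also acts outside NuRD, with the proteins ADNP and HP1, at sites that include repeated DNA.

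The shluci lists held 135583 and 93091 peaks and the shRNA1 lists 140936 and 91397, for replicates 1 and 2. List length thus followed the replicate number more than the hairpin. If the peaks were called by MACS2 without a control sample, the implied depth was 10.0, 10.0, 10.2 and 10.0 M reads (M, mega), and the peak summit of lowest signal stood on 3 or 4 reads. The shortest peak measured 54 and 70 bp with shluci and 47 and 61 bp with shRNA1, shorter with shRNA1 at each replicate number, but the groups overlapped. Other properties moved with the hairpin, and the part of all of these in the results was not tested. The peaks covered 18.2 and 17.0 Mb (megabases) with shluci and 15.01 and 12.0 Mb with shRNA1. Peaks whose −log10 q reached 10 numbered 15501 and 16498 against 7062 and 8443. Strong peaks were thus fewer in both shRNA1 lists than in both shluci lists. A weaker signal in every cell and a signal lost from some of the cells cannot be told apart in such bulk libraries. The level of the Chd4 transcript is not measured by this assay, so the knockdown itself could not be checked.

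Peaks of the 4 lists were merged into 260842 regions. A region was lost when both shluci lists and neither shRNA1 list had a peak there, and gained in the opposite case. There were 14738 lost regions, 5.65% of all, and 12315 gained regions, 4.72% of all, while 26358 regions had a peak in all 4 lists. When the 4 lists were first cut to the length of the shortest by the −log10 p of the peaks, 11795 regions were lost under both list lengths (4.52% of all) and 9451 were gained under both (3.62%). The highest-ranked regions, the sequences and the counts by nearest gene come from these 2 sets, while the calls at promoters of genes use the deposited lists. A region without a peak is below the limit of its list, which is not the same as closed chromatin. No test per region was run, and an exact permutation of 2 libraries against 2 cannot give a two-sided p below 0.333.

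The sequences around the highest-ranked lost and gained summits show what kinds of DNA stood at either end. They are printed 5′ to 3′ on the plus strand of GRCm38 (mm10), within 100 bp of the summit, without any annotated UTR, and with matches to 12 short motifs in capitals.
Lost, promoter of Rps6ka5, chr12:100725121-100725235: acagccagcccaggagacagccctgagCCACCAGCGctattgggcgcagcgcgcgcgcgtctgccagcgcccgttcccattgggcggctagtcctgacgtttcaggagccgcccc
Lost, distal, nearest start Ankle2, chr5:110227706-110227906: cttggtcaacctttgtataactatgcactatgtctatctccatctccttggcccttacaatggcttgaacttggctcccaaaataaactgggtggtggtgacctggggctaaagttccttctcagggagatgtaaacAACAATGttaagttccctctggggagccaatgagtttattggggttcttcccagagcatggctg
Lost, distal, nearest start Tmem220, chr11:67018057-67018257: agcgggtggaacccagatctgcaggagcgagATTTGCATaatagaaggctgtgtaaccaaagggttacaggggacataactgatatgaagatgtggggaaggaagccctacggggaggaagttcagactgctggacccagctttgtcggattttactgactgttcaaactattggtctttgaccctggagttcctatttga
Gained, promoter of Spaca1, chr4:34049861-34049996: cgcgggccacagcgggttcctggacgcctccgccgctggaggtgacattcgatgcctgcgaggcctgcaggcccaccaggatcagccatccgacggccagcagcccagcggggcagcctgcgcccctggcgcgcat
Gained, promoter of Zfp119a, chr17:55878640-55878840: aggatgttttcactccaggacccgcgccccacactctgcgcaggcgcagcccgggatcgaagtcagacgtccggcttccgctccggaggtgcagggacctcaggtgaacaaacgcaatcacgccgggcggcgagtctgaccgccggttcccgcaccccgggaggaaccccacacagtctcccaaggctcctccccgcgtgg
Gained, distal, nearest start Nkx3-2, chr5:41781658-41781858: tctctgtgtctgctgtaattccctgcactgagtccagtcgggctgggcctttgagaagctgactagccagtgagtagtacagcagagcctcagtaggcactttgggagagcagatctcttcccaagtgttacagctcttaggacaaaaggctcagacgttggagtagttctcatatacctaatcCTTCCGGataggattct
Gained, distal, nearest start 9330182L06Rik, chr5:9452944-9453144: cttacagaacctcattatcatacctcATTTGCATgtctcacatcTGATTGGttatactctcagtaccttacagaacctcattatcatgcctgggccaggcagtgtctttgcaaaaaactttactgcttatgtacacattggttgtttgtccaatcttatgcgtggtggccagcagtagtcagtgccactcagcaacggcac
The capitals mark the CTCF core letters CCACNAGNG in the Rps6ka5 promoter, the SOX letters CATTGTT beside Ankle2, the OCT letters ATGCAAAT beside Tmem220 and 9330182L06Rik, the ETS letters CCGGAAG beside Nkx3-2 and the NFY letters CCAATCA beside 9330182L06Rik, each on either strand. A match is a description of the letters and not evidence of a bound factor. The 3 lost windows share no stretch of 24 bases with any other region, whereas the 2 gained distal windows share one with 32 and 348 regions, themselves counted. Of the gained promoter windows, that of Spaca1 shares none either, and that of Zfp119a shares one with 2 regions, itself counted.

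The lost promoters that ranked highest in the shluci lists belonged to Rps6ka5, Ell2, G3bp1, Ap2a1, Gins2, Cstf3, Mkrn1 and Paip2b. The value printed for each is the authors' fold, the signal at the summit over the local background of its own list. The region at Rps6ka5, which encodes a kinase of histone H3, lay at chr12:100725060-100725460 and had folds of 14.2 and 14.99 in the 2 shluci lists and no peak in either shRNA1 list. The region at Ell2, a transcription elongation factor, lay at chr13:75706995-75707430 in the first exon and had folds of 11.4 and 10.5. Rps6ka5 and Ell2 also lacked a peak in both lists of the second Chd4 hairpin, shRNA2, and had folds of 13.6 to 16.1 and 12.5 to 14.6 in the 4 lists of the Chd8 shluci cells and of the control line (overexpressed control, no hairpin named), all without IAA. These 2 promoters were therefore open in all 6 lists without a Chd4 hairpin and below the limit in all 4 lists with one.

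The region at G3bp1, whose product is a core protein of stress granules, lay at chr11:55469201-55469628 and had folds of 11.1 and 11.0 with shluci. The region at Gins2, a subunit of the GINS complex of the replicative helicase, spanned chr8:120588745-120589399 and had folds of 12.0 and 12.3. Neither had a peak in the lists of shRNA1 or of shRNA2. The remaining 4 were called in at least 1 shRNA2 list. Ap2a1, a subunit of the AP-2 adaptor of endocytosis, lay at chr7:44929484-44929893 with folds of 11.2 and 14.8 in the shluci lists and 8.91 in 1 shRNA2 list. Cstf3, a subunit of the cleavage factor that matures messenger RNA, lay at chr2:104590129-104590599 with 12.2 and 11.4. In the shRNA2 lists its folds were 4.56 and 7.36. Mkrn1, a ubiquitin ligase, lay at chr6:39420285-39420729 with 11.4 and 12.3, and shRNA2 gave 3.65 and 6.57. Paip2b, a repressor of translation, lay at chr6:83831617-83831967 with 11.6 and 12.1, and 1 shRNA2 list gave 4.22. All 8 regions had a peak in the 4 lists of the Chd8 shluci cells and the control line.

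The highest-ranked lost regions more than 2000 bp from any start were spread over 4 chromosomes. The region 3198 bp from the Ankle2 start, at chr5:110227316-110227916, had folds of 16.3 and 13.6 in the shluci lists. The region 6997 bp from Tmem220, at chr11:67017810-67018251, had 10.9 and 14.98. Both were intergenic. A region in an intron of Sh3pxd2a, which encodes a scaffold protein of podosomes, had folds of 10.4 and 14.0 at chr19:47450275-47450962, and one in an intron of Tenm4 had 12.5 and 11.3 at chr7:96655150-96655478. The Sh3pxd2a region had no peak in either shRNA2 list, and the other 3 had a peak in at least 1.

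The gained promoters that ranked highest in the shRNA1 lists included those of Spaca1, Zfp119a, Grm7, Smap2, Ccdc152, Dap and Inka2, and these regions were mostly narrower than the lost ones. Widths were 116 to 363 bp, against 351 to 655 bp for the lost promoters, in lists whose median peak measured 88 and 107 bp with shRNA1 and 104 and 135 bp with shluci. Spaca1, an acrosomal protein of sperm, had folds of 10.3 and 10.7 in the shRNA1 lists at chr4:34049682-34050044 and none in the shluci lists. Zfp119a, a zinc finger gene, had 8.33 and 13.0 at chr17:55878651-55878874. The folds of Grm7, a glutamate receptor gene, were 8.77 and 8.80 at chr6:110645114-110645246.

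Gained did not mean absent from other embryonic stem cells of the series. Zfp119a had folds of 15.5, 21.8, 20.4 and 23.4 in the lists of the Chd8 shluci cells and the control line. Smap2 (chr4:121016716-121016873), with 10.1 and 8.78 in the shRNA1 lists, had 15.9 and 16.9 in the control line. Dap (chr15:31224442-31224557), with 8.08 and 10.1, had 16.2 and 17.0 there, and Inka2 (chr3:105704924-105705062), with 9.06 and 8.77, had 17.3 and 20.1. These 4 promoters thus had no peak in the Chd4 shluci lists and a peak in both lists of the control line. Ccdc152 (chr15:3302880-3303216), with 10.1 and 9.66, had 3.78 and 3.59 in the control line. In the shRNA2 lists Ccdc152 had 8.14 and 11.1, and Zfp119a and Smap2 had no peak. By their titles the control line and the Chd8 cells belong to other sets, so a difference from them cannot be told apart from a difference between sets.

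The highest-ranked gained distal regions had larger folds than the gained promoters, and all 4 held sequence that occurs in many regions. The region 17257 bp from Nkx3-2, at chr5:41781602-41781848, had folds of 16.4 and 17.8. A region in an intron of 9330182L06Rik, at chr5:9452953-9453127, had 17.2 and 20.04. The nearest protein-coding starts of the other two were those of Thsd7a and Flrt2, at distances of 18924 and 1154322 bp. The Thsd7a region had folds of 16.0 and 17.0 at chr6:12768235-12768433, and the Flrt2 region had 15.3 and 16.4 at chr12:96849560-96849846. All 4 also had peaks in both shRNA2 lists, with folds of 7.95 to 17.5. The Thsd7a and Flrt2 regions had no peak in any of the 6 lists without a Chd4 hairpin.

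Lost and gained regions were mostly of middle rank within their lists. Each region with a peak in both lists of an arm was placed by its mean percentile of −log10 p. Among regions with a peak in both shluci lists, 44.9% of those below the 50th percentile were lost, 28.6% of those between the 50th and 75th, and 1.68% of those above the 95th, where 75 of 4466 were lost. Among regions with a peak in both shRNA1 lists the shares gained were 41.5%, 27.3% and 4.22%, with 159 of 3768 above the 95th percentile. The strongest sites of either arm were thus rarely missed by both lists of the other. At the median the summit of a lost region stood on 7 and 8 reads in the shluci lists, that of a gained region on 6 and 7 reads in the shRNA1 lists, and that of a retained region on 11 and 13 reads with shluci. At the median a changed region thus stood 3 or 4 reads above the lowest summit of its list.

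**Figure D1:**
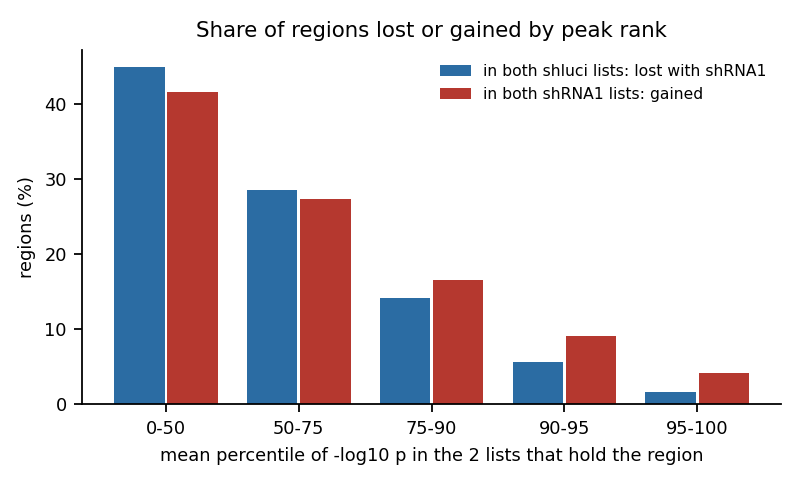
Percentage of regions that were lost (blue, of those with a peak in both shluci lists) or gained (red, of those with a peak in both shRNA1 lists), by mean percentile of −log10 p in these 2 lists. The shares fall from 44.9% and 41.5% in the lowest range to 1.68% and 4.22% in the highest.

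Peaks in the other libraries were counted over the same regions, with every list cut to an equal length or, where shorter, at its own. Lost regions had a peak in 51.3% and 60.7% of cases in the Chd8 shluci lists and in 78.5% and 76.1% in the control line, and in 20.4% and 19.8% in the shRNA2 lists. Gained regions had a peak in 12.2% and 20.1%, in 28.4% and 26.7%, and in 38.1% and 38.3%, in the same order. Over all regions the shares were 24.8% and 31.2%, 43.1% and 41.5%, and 22.4% and 22.7%, so that lost regions lay close to all regions in the shRNA2 lists and above them in the other 4, while gained regions lay above them in the shRNA2 lists and below in the other 4. Retained regions had a peak in 69.0% and 76.6% of cases in the shRNA2 lists and in 78.1% to 91.4% in the other 4. The libraries of both Chd4 hairpins were set against the same 2 shluci libraries, so the shRNA2 values are given side by side and not as a repeat of the comparison.

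**Figure D2:**
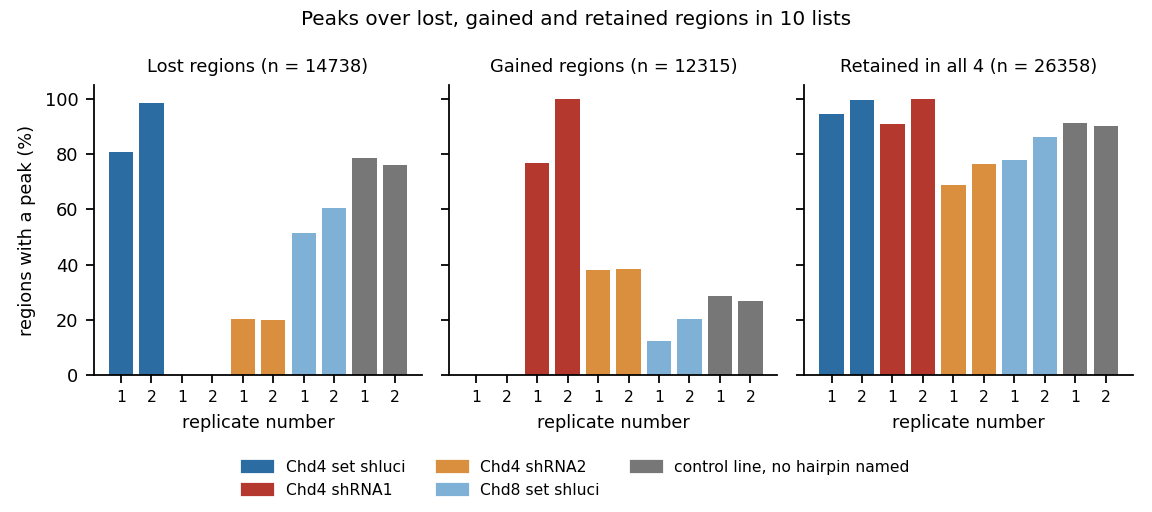
Percentage of lost, gained and retained regions with a peak in each of 10 lists of 91397 peaks (80619 for shRNA2 replicate 2), by group (colour) and replicate number. The 4 Chd4 shluci and shRNA1 lists defined the sets. Lost regions have a peak in 20.4% and 19.8% of cases in the shRNA2 lists and in 51.3% to 78.5% in the 4 lists of the Chd8 shluci cells and the control line.

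Promoters made up less of the shRNA1 lists and gene deserts made up more. Each peak was classed by its summit as promoter (within 500 bp of an annotated start), exon, intron, intergenic within 100 kb of a start, or intergenic beyond 100 kb, in lists of 91397 peaks each. Promoter peaks were 21.5% and 20.9% of the shluci lists and 17.9% and 18.7% of the shRNA1 lists. The means were 21.2% ± 0.435 and 18.3% ± 0.586 (SD, n = 2 each), so that promoters were −2.85 percentage points apart, more than the replicate spread of 0.730. Peaks beyond 100 kb were 2.54% and 2.83% with shluci and 4.70% and 4.30% with shRNA1, a difference of 1.81 points against a spread of 0.344. In both classes the groups did not overlap. At deposited list length the promoter shares of the groups did overlap, with a difference of −2.07 points and an exact permutation p of 0.667.

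Peaks within 100 kb of a start were 34.4% and 34.7% with shluci and 37.1% and 36.1% with shRNA1, a difference of 2.06 points. Intron peaks were 36.5% in both shluci lists and 35.2% and 35.5% in the shRNA1 lists, a difference of −1.11 points. Both differences exceeded their spreads of 0.734 and 0.247, and the intron shares also overlapped at deposited list length (−1.31 points, exact permutation p of 0.667). Exon peaks overlapped between the groups, at 5.14% in both shluci lists and 5.13% and 5.33% in the shRNA1 lists. For the 4 classes whose groups did not overlap, exact permutation gave a two-sided p of 0.333, its floor, and for exons it gave 1.00. Adjusted over the 5 classes by Benjamini-Hochberg, the permutation p was 0.417 for each of the 4. The shRNA2 lists, with the same controls, held 14.5% and 18.4% promoter peaks and 5.22% and 4.01% beyond 100 kb, a wider spread between replicates than in either other group.

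**Figure D3:**
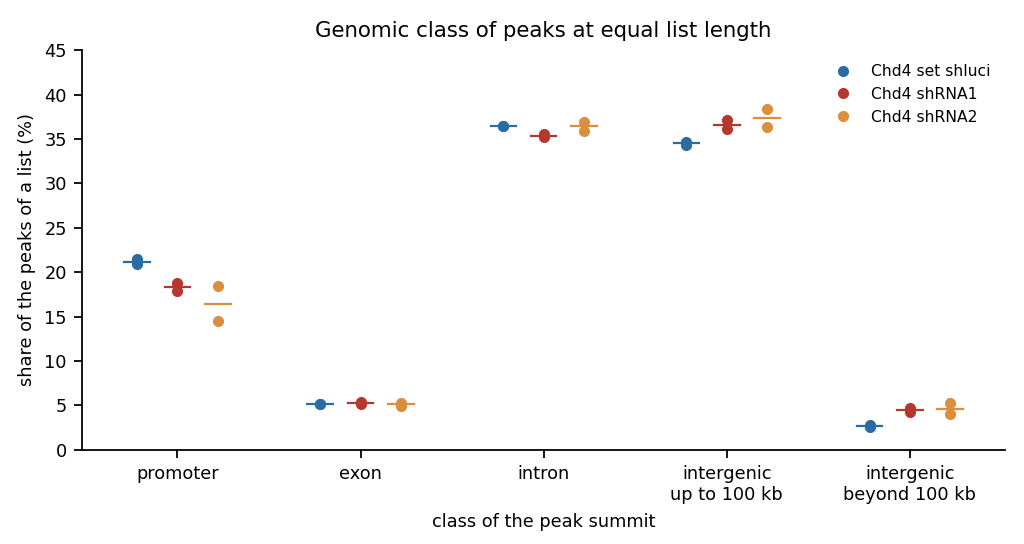
Share of the peaks of a list in each genomic class, with 1 point per library and a bar at the mean of 2, at equal list length. The shRNA1 libraries lie below the shluci libraries for promoters (17.9% and 18.7% against 21.5% and 20.9%) and above them beyond 100 kb from a start.

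The regions were then counted by class. Of the 32787 promoter regions 2556 were lost (7.80%) and 1282 gained (3.91%), against 5.65% and 4.72% of all regions. Of the 11159 regions beyond 100 kb, 320 were lost (2.87%) and 761 gained (6.82%). Introns (5.65% lost, 4.24% gained), exons (4.99%, 4.51%) and regions within 100 kb (5.34%, 5.30%) lay between them. Promoter regions also had a peak in all 4 lists more often. Of those either lost or retained 24.3% were lost, against 28.8% beyond 100 kb, 37.4% in exons, 38.0% within 100 kb and 42.9% in introns. On this denominator promoters and far regions had the lowest shares of loss, so the order of classes differs from that over all regions. Of the regions either gained or retained, 13.9% were gained at promoters, 35.1% in exons, 36.0% in introns, 37.8% within 100 kb and 49.0% beyond it.

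By the type of the gene at the nearest start, 8.41% of 24917 promoter regions of protein-coding genes were lost and 3.34% gained. For long noncoding RNA genes these shares were 6.97% and 5.21% of 4316 regions. At starts of pseudogenes the order was the opposite, with 64 of 1976 regions lost (3.24%) and 161 gained (8.15%). Chromosomes differed as well. The gene-dense chromosomes 11 and 19 had 7.94% and 7.42% of their regions lost and 3.33% and 2.95% gained, and chromosome 3 had 4.75% lost and 5.62% gained.

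Of 21938 protein-coding genes, 12398 and 11819 had a peak within 500 bp of a start in the shluci lists and 11455 and 10275 in the shRNA1 lists, in spite of the longer list of shRNA1 replicate 1. A promoter peak was lost at 885 genes, 4.03% of all, and gained at 329, 1.50% of all, and 7894 genes had one in all 4 lists. These counts depend on peak strength. With peaks of a −log10 q of at least 5 they were 1786 lost and 194 gained, and at a −log10 q of at least 10 they were 1717 and 95. The median number of CpG dinucleotides within 100 bp of the gene's first listed start was 17 for lost promoters, 16 for promoters with a peak in all 4 lists, 8 for gained promoters and 2 for the 7295 promoters without a peak. The median GC content was 64.2%, 64.7%, 60.2% and 48.8% in the same order, so gained promoters stood nearer to retained ones in GC than in CpG number.

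Among the 26 genes of core and naive pluripotency, 3 promoters were lost and 1 gained, and 11 had a peak in all 4 lists. The lost share of 11.5% compares with 4.03% of all genes, on 3 genes. Klf5, which encodes a zinc finger factor of self-renewal, had folds of 10.3 and 8.34 with shluci and no peak in the 4 lists with a Chd4 hairpin. Sall4, a zinc finger factor that binds NuRD, had 9.43 and 7.77 and likewise no peak in those 4 lists. Dppa2, which acts with Dppa4 on bivalent promoters and early embryonic genes, had 6.81 and 8.82 with shluci, none with shRNA1, and 11.9 and 6.53 with shRNA2. These 3 promoters had a peak in all 4 lists of the Chd8 shluci cells and the control line.

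The gained promoter of the list was that of Dppa3, a maternal factor of the oocyte and of naive cells, with folds of 4.44 and 3.39 in the shRNA1 lists and no peak in the other 8 lists. Nanog had a promoter peak in all 4 lists, with folds of 5.89, 3.97, 4.95 and 4.53. Pou5f1 had one in shluci replicate 2 alone (3.81), and Sox2 in replicate 1 of each arm (5.18 and 4.48). Beyond promoters, 87 of the 1048 regions nearest to the genes of this list were lost under both list lengths and 25 were gained, which is 8.30% and 2.39% against 4.52% and 3.62% of all regions. This lost share varied between gene lists. It was 8.20% nearest to cytosolic ribosomal protein genes and 8.02% for trophoblast regulators. Primed pluripotency and Nodal genes had 7.58% and Wnt pathway genes 6.51%. For NuRD subunits, Hox genes and chromatin remodeller ATPases it was 5.81%, 5.73% and 5.72%. Endoderm and mesoderm regulators had 4.34%, neural regulators 4.13% and 2-cell stage genes 2.15%, below all regions. A high lost share was thus not confined to pluripotency genes, and differences between gene lists were not tested. Of the 121 regions nearest to Klf5, 11 were lost in this way and 1 was gained. For Esrrb, an orphan nuclear receptor of naive cells, 11 of 89 were lost and 2 gained, and for Sox2 9 of 94 and 2. These genes were picked after their values were seen.

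Of the 15 genes of NuRD subunits 1 promoter was lost and 0 were gained, near the 4.03% and 1.50% of all genes, while 4 had a peak in all 4 lists and 5 in none. This was Mbd2, which binds methylated DNA, with folds of 8.44 and 6.08 in the shluci lists, none with shRNA1, and 5.74 and 7.01 with shRNA2. The Chd4 promoter had a peak in shRNA1 replicate 1 alone, with a fold of 4.71, and the control line gave low folds of 4.05 and 4.11 there. Among 20 genes of chromatin remodeller ATPases 2 promoters were lost, those of Chd2 (4.68 and 7.05 with shluci) and Chd7 (4.47 and 4.78), and 0 were gained. Over all genes the shares are 4.03% and 1.50%, and 2 genes are too few to read a difference from.

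Regulators of later lineages had 1 or 2 promoters called per list and direction at most, where 4.03% of all genes were lost and 1.50% gained, and no difference from all genes can be read from such counts. Of 24 endoderm and mesoderm genes the promoter of Gata6, a factor of primitive endoderm, was lost (4.98 and 4.36 with shluci). Those of Gata4 (3.98 and 4.88 with shRNA1), its partner in endoderm, and Msgn1 (5.30 and 3.59), a factor of presomitic mesoderm, were gained. Of 25 neural genes Neurog1 and Tubb3 were lost and Neurod1 was gained. Of 17 trophoblast genes Tfap2a was lost. Of 19 primed pluripotency and Nodal pathway genes Pou3f1, a POU factor of the epiblast, was lost (6.29 and 5.20), and Cer1, a secreted Nodal antagonist, was gained (3.91 and 3.61). Most of these peaks stood on 4 to 9 reads, near the limit of the lists. The gained promoters also had peaks in other lists without a Chd4 hairpin. Msgn1 had folds of 6.13 and 8.10 in the Chd8 shluci lists and 5.84 and 5.09 in the control line. Gata4 had 4.91 in Chd8 shluci replicate 2 and 8.30 and 7.71 in the control line, and Neurod1 had 4.27, 5.03 and 5.60 there. Cer1 had 3.72 in Chd8 shluci replicate 2 and 3.29 in control line replicate 2.

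Hox genes, the homeodomain genes that pattern the body axis, had 4 promoters lost, among them Hoxc13, Hoxb7 and Hoxd11, and 2 gained (Hoxc10 and Hoxd1) of 39, against 4.03% lost and 1.50% gained of all genes. Of the lost promoters Hoxc13 had the highest folds, 10.3 in both shluci lists, and those of Hoxb7 and Hoxd11 were 3.63 to 4.31. Hoxd1, with 3.98 and 3.77 in the shRNA1 lists, had 11.2 in Chd8 shluci replicate 2 and 11.4 and 12.3 in the control line. Hoxc10, with 5.57 and 6.68, had 3.99, 7.56 and 7.82 there. Among the 15 matched genes of the 2-cell stage, 13 had no promoter peak in any of the 4 lists and 1, Usp17le, was gained with folds of 4.78 and 8.20. This is 6.67% against 1.50% of all genes, on 1 gene. Of the 93 regions nearest to genes of the list, 13 were gained under both list lengths (14.0% against 3.62% of all regions) and 2 were lost. These genes belong to families of near-identical copies, so their reads may be shared, which was not tested. Of the 21 Wnt pathway genes 1 promoter was lost, that of the receptor gene Fzd7 (5.84 and 8.24). The 1 of 21 is 4.76%, near the 4.03% of all genes.

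Of 76 genes of cytosolic ribosomal proteins, 7 promoters were lost and 1 was gained, which is 9.21% and 1.32% against 4.03% and 1.50% of all genes. The lost ones included Rps9, Rpsa, Rps19, Rpl35, Rpl27 and Rpl13a, with folds of 3.58 to 8.31 in the shluci lists, and the gained one was Rps3. The number of genes of this list with a promoter peak was 46 and 45 with shluci and 35 in both shRNA1 lists. It was 68 and 71 in the Chd8 shluci lists and 75 and 76 in the control line, so the shluci lists of the Chd4 set also lacked many of them. Over all genes it was 12398 and 11819 with shluci and 11455 and 10275 with shRNA1. Ribosomal protein genes are housekeeping genes that every cell transcribes, so a promoter without a peak is not a silent gene here.

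**Figure D4:**
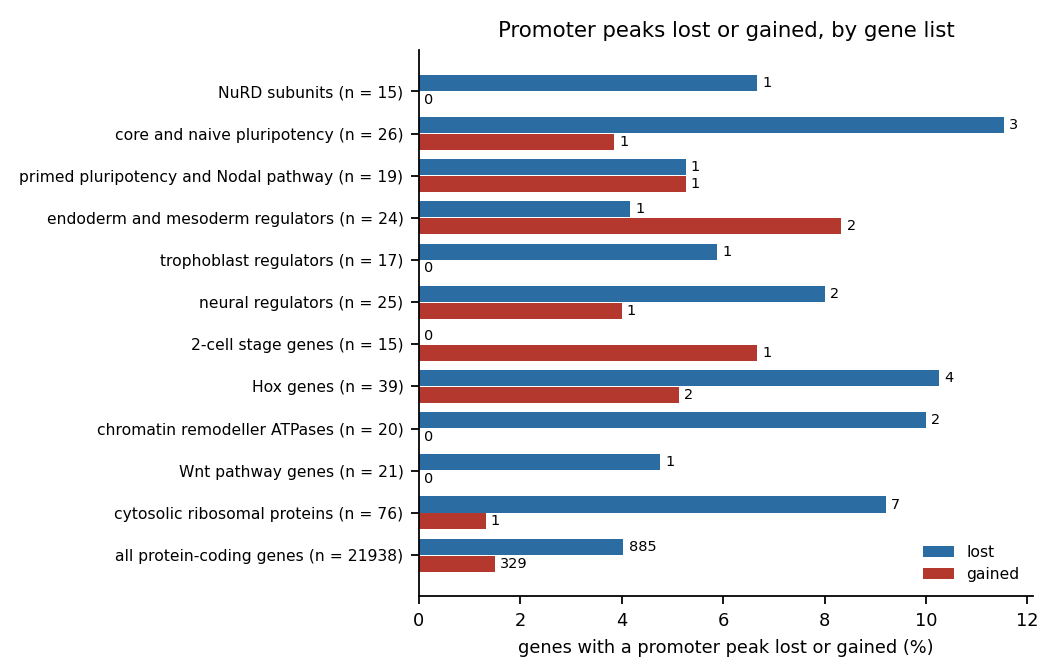
Percentage of the genes of each list whose promoter peak was lost (blue) or gained (red), with the number of genes beside each bar and all 21938 protein-coding genes at the bottom. The lists have 15 to 76 genes, so most bars stand on 0 to 4 genes.

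The label of the cells was checked with markers. Of 8 embryonic stem cell markers, 6 and 6 had a promoter peak in the shluci lists and 6 and 4 in the shRNA1 lists. Klf4 was without a peak in all 4. Of 8 fibroblast markers 3 and 0 had a peak in the shluci lists and 2 and 1 in the shRNA1 lists. Of 6 markers each of neural cells, trophoblast and primitive endoderm, 2 to 3, 2 to 3 and 3 to 5 had a peak with shluci and 3 to 4, 1 to 4 and 4 with shRNA1. An open promoter in stem cells does not require expression. Of the 424 regions nearest to embryonic stem cell markers, 44 were lost under both list lengths (10.4% against 4.52% of all regions) and 10 were gained (2.36% against 3.62%). All 8 of these markers are also in the list of core and naive pluripotency, so these regions are among the 1048 given for that list. For primitive endoderm markers 5 of 171 nearest regions were lost (2.92%) and 12 gained (7.02%, against 3.62% of all regions), and for neural markers 7 of 198 were lost (3.54%) and 11 gained (5.56%). Trophoblast markers were above all regions in both directions, with 11 of 162 lost (6.79%) and 13 gained (8.02%), while the longer list of trophoblast regulators had 32 of 399 lost (8.02%) and 15 gained (3.76%). Fibroblast markers had 2 of 157 lost (1.27%) and 6 gained (3.82%). The lists of other cell types thus differed among themselves, and the part of the makeup of the cultures in the results was not tested.

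By the nearest protein-coding start, the genes with the most regions lost under both list lengths were Auts2, a gene of neurodevelopment (18 of 211 regions), Etl4 (15 of 147), Shroom3, a regulator of cell shape (14 of 101), and Slc39a11, a zinc transporter (14 of 112). Each of them had 2 to 4 gained regions. The genes with the most gained regions were cadherins and protocadherins, which are adhesion molecules of the cell surface. They were Pcdh9 (24 of 412), Cdh8 (23 of 482), Pcdh17 (18 of 271) and Cdh11 (17 of 296), with 1 to 7 lost. Of the gained regions nearest to these 4, 11, 6, 5 and 3 held multi-copy sequence, as defined next. Over all regions 4.52% were lost and 3.62% gained in this way, and these genes were chosen by their counts, so genes with many regions lead and the shares were not tested.

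Repeated sequence was far more common among gained than among lost regions. This was measured after the regions had been seen, in 2 ways. The summit lay in the part of the genome that RefSeq soft-masks as repeated in 26.1% of gained, 14.9% of lost, 14.7% of retained and 19.6% of all regions. A region was called multi-copy when a stretch of 24 bases within 100 bp of its summit occurred in at least 20 of the regions, and 19.7% of gained, 7.53% of lost, 9.36% of retained and 11.5% of all regions were. The regions counted were those of the compared lists, so a repeat with peaks mainly in 1 arm could reach this limit through that arm. Repeats found only in the other libraries could not reach it. The multi-copy shares are thus partly set by this definition, while the soft mask does not depend on these lists. Over the peaks of each list at equal length, multi-copy peaks were 8.20% and 9.12% with shluci and 13.0% and 12.4% with shRNA1. The means were 8.66% ± 0.654 and 12.7% ± 0.459 (SD, n = 2 each). The groups were 4.04 points apart, more than their spread of 0.799, and the exact permutation p (two-sided) stood at its floor of 0.333. The soft-masked share was 15.04% and 16.2% against 20.05% and 19.3%, a difference of 4.09 points with the same permutation p. The shRNA2 lists held 10.9% and 10.6% multi-copy peaks, and the lists of the Chd8 shluci cells and the control line 7.46% to 8.76%. How reads that align to several places were treated is not given in the sources used here, and its part in these results was not tested.

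The stretches of 24 bases found most often are shown as examples of the repeated DNA in changed regions. The first 6 were the most frequent in regions gained under both list lengths and the last 3 the most frequent in lost ones. Simple repeats were left out, as was any stretch that shared 10 bases with a higher one. They are printed in 1 orientation, with a match to the NFY letters in capitals.
Gained 1: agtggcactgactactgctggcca
Gained 2: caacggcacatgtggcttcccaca
Gained 3: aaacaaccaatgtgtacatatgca
Gained 4: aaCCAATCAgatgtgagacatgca
Gained 5: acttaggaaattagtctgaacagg
Gained 6: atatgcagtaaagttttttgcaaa
Lost 1: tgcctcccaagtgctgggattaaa
Lost 2: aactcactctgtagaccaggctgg
Lost 3: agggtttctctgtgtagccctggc
The first gained stretch occurred 1054 times in the genome, on 21 chromosomes, and in 348 regions, of which 109 were gained and 3 lost under both list lengths and 31 were retained. The others of the gained 6 were in 64 to 87 gained and 1 or 2 lost regions. At least 1 of the 6 was in 268 gained regions, 5 lost and 63 retained, so most of the 1977 multi-copy regions gained under both list lengths held none of them, and 119 of the 268 held at least 2 of them. The 9330182L06Rik window printed above holds Gained 1 and Gained 4 as reverse complements, and the Thsd7a and Flrt2 regions hold these as well as Gained 3. The stretches thus partly lie together in the same regions.

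In lists of 91397 peaks (80619 for shRNA2 replicate 2), the first gained stretch was in 52 and 49 peaks with shluci and in 258 and 240 with shRNA1. It was in 176 and 165 peaks with shRNA2, in 32 and 55 in the Chd8 shluci lists, and in 3 and 4 in the control line. All 4 lists with a Chd4 hairpin thus stood above the 6 without one, of which 4 belong to other sets. The stretches were chosen for their number in gained regions, so the shluci and shRNA1 counts are a description, and the shRNA2 lists share the same shluci controls. Gained 2, 3, 4 and 6 followed the same order, with 31 to 52 peaks in the shluci lists, 151 to 214 in the shRNA1 lists and 116 to 162 in the shRNA2 lists. Gained 5 did not: it was in 37 and 34 peaks with shluci, 237 and 171 with shRNA1, 95 and 84 with shRNA2, and 76 and 235 in the Chd8 shluci lists. Replicate 2 of the Chd8 shluci cells thus reached the level of shRNA1 for that stretch. The 3 stretches most frequent among lost regions were more common in the genome, with 34519 to 40404 copies, and differed less. Lost 1 was in 137 and 138 peaks with shluci and in 137 and 115 with shRNA1, Lost 2 in 138 and 123 against 95 and 116, and Lost 3 in 110 and 102 against 83 and 87.

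**Figure D5:**
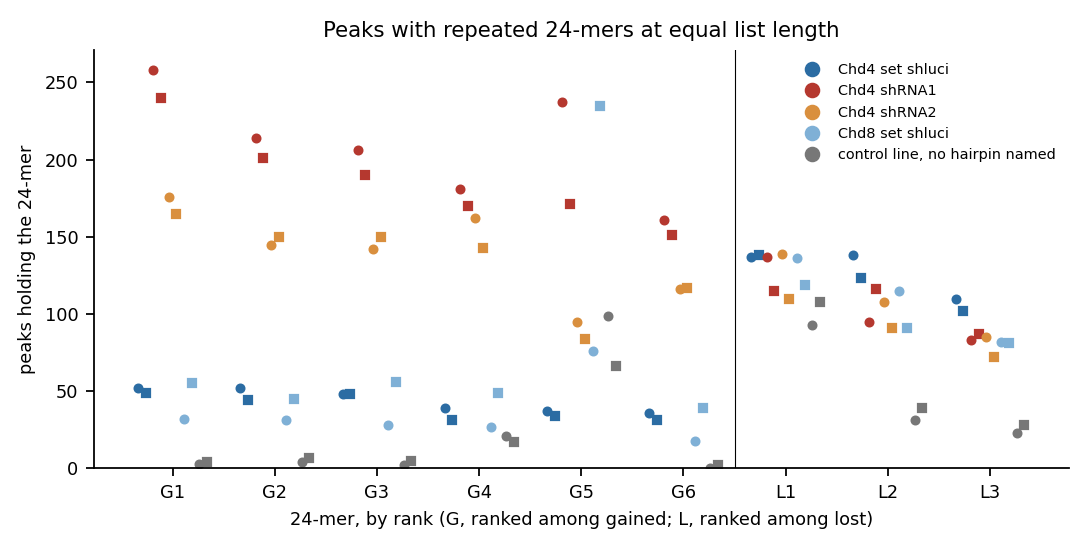
Number of peaks that hold each of 9 repeated stretches of 24 bases in 10 lists of 91397 peaks, or 80619 for shRNA2 replicate 2 (circle, replicate 1; square, replicate 2). For G1 to G4 and G6 the shRNA1 lists have 151 to 258 peaks and the shluci lists of the same set 31 to 52, while L1, the stretch ranked highest among lost regions, has 137 peaks in replicate 1 of both groups.

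Apart from multi-copy regions the class difference between lost and gained regions remained. Among the other regions 18.4% of lost and 12.4% of gained regions were promoters, and 1.96% and 4.97% lay beyond 100 kb. Multi-copy gained regions were promoters in 2.22% of cases and lay beyond 100 kb in 11.1%.

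The 12 motifs were searched on both strands within 100 bp of the summit. The OCT letters ATGCAAAT were in 3.43% of gained, 1.83% of lost and 1.94% of all regions, the NFY letters CCAATCA in 5.54%, 3.68% and 3.55%, and the YY1 letters AAGATGGCG in 1.63%, 0.421% and 0.644%. In gained regions that were not multi-copy these shares were 2.36%, 3.90% and 0.415%, and in multi-copy gained regions 7.82%, 12.2% and 6.58%. In lost regions that were not multi-copy they were 1.78%, 3.52% and 0.345%, and in all regions that were not multi-copy 1.72%, 3.07% and 0.306%. Over all multi-copy regions they were 3.66%, 7.22% and 3.26%. The higher shares in gained regions thus lay largely in repeated sequence, and smaller differences in the same direction remained outside it. The CTCF core letters CCACNAGNG were in 3.44% of lost, 3.13% of gained and 3.08% of all regions. The 8 remaining motifs differed between lost and gained regions by less than 1 percentage point. The letters TCAAGGTCA (ESRRB) were in 0.997% of lost and 0.934% of gained regions, against 0.970% of all. The letters GGGNGTGGC (KLF) were in 3.05% of lost and 3.84% of gained regions, against 2.70% of all. For SOX the letters CATTGTT gave 3.46% of lost and 3.28% of gained regions. For GATA the letters AGATAAG gave 2.15% of lost and 2.13% of gained regions. For AP-1 the letters TGANTCA gave 6.32% of lost and 5.97% of gained regions. For TEAD the letters GGAATGT gave 3.81% of lost and 3.29% of gained regions. For ETS the letters CCGGAAG gave 2.50% of lost and 2.94% of gained regions. For NRF1 the letters GCGCATGCG gave 0.360% of lost and 0.195% of gained regions.

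Over the peaks of each list, OCT letters were in 1.83% and 1.90% with shluci and in 2.26% and 2.28% with shRNA1, a difference of 0.41 points against a spread of 0.0468. The shRNA2 lists had 2.35% and 2.34%, the Chd8 shluci lists 1.60% and 1.65%, and the control line 3.06% and 3.09%, above shRNA1. YY1 letters were in 0.511% and 0.485% with shluci and in 0.913% and 0.803% with shRNA1, and in 0.502% and 0.509% with shRNA2, which lay within the range of shluci. The Chd8 shluci lists had 0.604% and 0.946% and the control line 0.707% and 0.632%, so that 1 list without a Chd4 hairpin stood above both shRNA1 lists. CTCF letters were in 3.54% and 3.33% with shluci and in 3.25% and 3.21% with shRNA1. The exact permutation p was 0.333 for each of these 3, and 0.364 after adjustment over the 12 motifs. Within 50 bp of the summit the OCT difference fell to 0.0733 points, and the NFY difference of 0.42 points changed sign to −0.0399.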

How the data were processed

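Peak lists in the narrowPeak layout, 1 per library, were used for the 4 libraries compared and for 6 others given beside them. Per the submitters' processing notes, Trim Galore, Bowtie2, MACS2 and deepTools and the build mm10 were used; their settings, filters and roles are not given in the sources used here. The deposited fold is a ratio of summit signal to local background, and the deposited −log10 p and −log10 q score every peak against its own library. They describe and rank peaks within a list, and no test was made of them between lists. Peaks were called per library, as the deposited intervals differ between replicates (at most 0.133% identical). Reads were not used, so no counting interval is given for a peak.

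Peaks of the 4 lists that overlapped by at least 1 bp were merged. Lists were cut to 91397 peaks by −log10 p for shares and for the second definition of lost and gained. Summit reads were solved from the fold and the −log10 p under MACS2's Poisson model and were whole for 100% of peaks; the implied depth assumes a genome size of 1870000000 bp. Starts and classes came from GENCODE vM21 basic (77161 starts). Sequences came from RefSeq's GRCm38, and 200 of 200 promoters read from it equalled RefSeq's table. Shares were tested by two-sided exact permutation of 6 arrangements of the libraries, adjusted by Benjamini-Hochberg within 5 classes, 12 motifs and the 2 measures of repeated sequence. The merging and calling were tested on simulated data.

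The regions named are the 8 promoters and 4 distal regions of each direction with the highest mean percentile, in both definitions and outside chromosome 18; the 4 genes with most lost and 4 with most gained regions; the list members lost or gained; and Chd4, Pou5f1, Sox2 and Nanog. Of the genes so chosen, 3 are not reported here. Each gene list of a pathway or marker came from textbook knowledge. The comparison, lists and rules were chosen with earlier results of these data known. Alternatives were equal list length, stricter −log10 q, 50% coverage, windows of 250 bp either side of summits, other promoter, motif and list sizes, and leaving out each library. Python 3.11.15, numpy 2.4.6, pandas 2.3.3, scipy 1.17.1 and matplotlib 3.10.9 were used.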

Additional observations from a re-analysis of the deposited data

How the results depend on the processing

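The split between lost and gained depends on peak strength. Of the changed regions 54.5% were lost in the deposited lists, 55.9% at equal list length, 65.2% when a region had to be covered by at least 50%, 73.2% where peaks needed a −log10 q of 5 or more and 85.1% at a −log10 q of at least 10. At the last threshold 5675 regions were lost and 995 gained, and at a −log10 q of at least 5 there were 3790 gained. Promoter peaks of genes were then lost at 1786 (−log10 q of at least 5) and 1717 (at least 10) and gained at 194 and 95. Peaks of this strength were fewer in both shRNA1 lists, and the cause was not tested. Leaving out 1 library, which removes 1 of 4 conditions, gave 21127 to 66803 regions lost, 16287 to 74932 gained, 1244 to 2138 gene promoters lost and 591 to 967 gained. The exon difference of 0.0903 points, with overlapping groups, turned to −0.00492 with starts within 1000 bp and was −0.0120 to 0.193 with a library left out. Motif differences that changed sign within 50 bp of the summit were those of KLF (0.14 to −0.114 points) and NFY (to −0.0399). With a shared stretch required in at least 100 regions the multi-copy difference was 2.42 points in place of 4.04. The promoter, intron and both intergenic differences kept their direction under each alternative run, with −4.08 to −2.07 points for promoters, but at deposited list length the groups overlapped for promoters and introns (exact permutation p of 0.667). The 24 named regions were chosen among those called at equal list length, and also kept their call at a −log10 q of at least 5; Zfp119a and Dap had a peak in 1 shRNA1 list only (a difference of 0.50 in the share of lists) at a −log10 q of at least 10, and so did Spaca1 (0.50) at 50% coverage. Replicates share a number, but the labels do not say that it marks a common culture or day, and their deviations correlated at −0.0410 over the regions of the deposited lists and 0.00889 at equal list length. With the replicate number as a block the promoter difference was the same −2.85 points, and the smallest exact permutation p is 0.500. Depth also limits single regions, since the lowest summits stand on 3 or 4 reads.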
